A study of Mus musculus with 38 samples.

Results

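Bone morphogenetic proteins (BMPs) are secreted ligands of the TGF-beta family that bind pairs of type I and type II receptors, and the receptors phosphorylate Smad1, Smad5 and Smad9, which enter the nucleus with Smad4. The Id genes are classical targets of this signal and code for helix-loop-helix proteins without a DNA-binding region, which hold E proteins and so limit basic helix-loop-helix factors such as Olig2. In the subventricular zone (SVZ) of the adult brain, BMP signalling and its antagonists are known for their part in the balance between quiescence, glial fate and neurogenesis of the stem cells.

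The 10 genes described here were chosen by symbol: the ligands Bmp2, Bmp4, Bmp5, Bmp6 and Bmp7, the type I receptors Bmpr1a and Bmpr1b, and Id1, Id2 and Id3. All 10 were found in the RNA table of 25965 genes and in the chromatin table of 25888 genes, where they held 23 of 72923 promoter windows. Neural stem/progenitor cells (NSPCs) were derived from the SVZ of male mice, with 5 animals combined per C57BL/6JBabr derivation, and grown as neurospheres in defined medium with EGF, basic FGF, B27 and heparin up to passage 2. Young adult animals were 3 months old and aged animals 18 months old, with no transgene or treatment named in either group. RNA, H3K4me3, H3K27me3 and DNA methylation were read in 3 derivations per age of strain C57BL/6JBabr. RNA was also read in 1 derivation per age of C57BL/10, from mice of another facility, so strain, facility and derivation cannot be told apart. The values describe pooled cultures in growth factor medium and not cells taken directly from the tissue, and the number of animals behind the C57BL/10 derivations is not stated.

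The RNA libraries held between 16952486 and 41053972 reads. The culture label was checked against marker genes. All 9 NSPC markers summed here (Nes, Sox2, Egfr and others) were measured, at a summed level of 6673 to 8409 RPM (reads of a gene scaled to the library total) in the C57BL/6JBabr libraries. In the same 6 libraries, markers of endothelial cells, pericytes, microglia, choroid plexus and meningeal fibroblasts summed to 7.66 RPM or less per list, and the choroid plexus gene Kl had no read. Neuronal markers summed to between 9.23 and 15.7 RPM. Astrocyte markers, several of which SVZ stem cells also express, summed to between 1996 and 2344 RPM in young adult and between 1787 and 1985 RPM in aged libraries.

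Stretches from the 250 bases before 5 transcript starts are shown because they set apart the kinds of promoter among these genes. Those of Bmpr1a and Id2 hold only 109 and 89 of these bases, and neither reaches the start from which its 250 bases are counted. The Bmpr1a stretch ends beside another start, that of its main promoter window at 34502687. They are given 5′ to 3′ on the strand of the gene, from the RefSeq promoter table of GRCm38.p6, limited to bases outside every GENCODE vM21 exon, with CpG dinucleotides, the sites of DNA methylation, in capitals. Bmp4 lies at chr14:46390670-46390919 (minus strand), Bmp5 at chr9:75775115-75775363 (plus), Bmpr1a at chr14:34502688-34502796 (minus), Bmpr1b at chr3:141982265-141982514 (minus) and Id2 at chr12:25096254-25096342 (minus).
Bmp4: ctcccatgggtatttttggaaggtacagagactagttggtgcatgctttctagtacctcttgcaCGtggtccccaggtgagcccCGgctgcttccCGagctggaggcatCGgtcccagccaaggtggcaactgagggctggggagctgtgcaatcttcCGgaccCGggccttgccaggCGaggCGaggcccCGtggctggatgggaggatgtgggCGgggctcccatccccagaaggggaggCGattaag
Bmp5: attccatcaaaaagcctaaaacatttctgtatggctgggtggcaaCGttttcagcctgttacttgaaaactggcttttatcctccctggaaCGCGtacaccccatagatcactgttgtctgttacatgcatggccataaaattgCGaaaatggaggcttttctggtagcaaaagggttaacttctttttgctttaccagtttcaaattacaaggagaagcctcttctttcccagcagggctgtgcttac
Bmpr1a: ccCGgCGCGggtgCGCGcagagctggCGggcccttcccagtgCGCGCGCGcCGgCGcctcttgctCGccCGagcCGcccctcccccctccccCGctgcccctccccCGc
Bmpr1b: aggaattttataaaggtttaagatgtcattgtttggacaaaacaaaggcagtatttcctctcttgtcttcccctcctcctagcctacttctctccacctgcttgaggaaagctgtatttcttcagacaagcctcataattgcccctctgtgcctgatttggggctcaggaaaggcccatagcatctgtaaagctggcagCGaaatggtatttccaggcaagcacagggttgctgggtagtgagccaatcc
Id2: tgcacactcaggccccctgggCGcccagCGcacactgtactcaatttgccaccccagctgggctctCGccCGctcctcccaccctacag
The Bmpr1a stretch held 17 CpGs in 109 bases, the Id2 stretch 4 in 89, and the Bmp4 stretch 11 in 250. The Bmp5 stretch held 4 in 249 and the Bmpr1b stretch 1 in 250. Over the full 250 bases before a start, the median of 32851 promoters in the table was 6 CpGs and 52.4% G or C. The full 250 bases held 36 CpGs at Bmpr1a, 18 at Id2, 11 at Bmp4, 4 at Bmp5 and 1 at this Bmpr1b start. G or C was at 42.8% for Bmp5, 46.8% for this Bmpr1b start, 63.2% for Bmp4, 62.8% for Id2 and 78.8% for Bmpr1a.

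Letter strings linked to Smad binding were searched in the 250 bases before a start on both strands, for the 7 members with an entry in the table. GGCGCC, which reads the same on both strands, was present once at Bmpr1a and once at Id2, and 9.59% of all promoters held it. CAGAC, which does not overlap GGCGCC, was present once at Bmp5, once at Bmp6, at 2 of the 3 Bmpr1b entries and 2 times at Id3, and 42.2% of all promoters held it. These are matches of letters only.

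RNA levels spanned from almost no reads to over 100 RPM. Id3 stood highest per length of exon, at 5.90 log2 RPM per kb (range 5.55 to 6.38 over the 6 C57BL/6JBabr libraries), above 96.2% of the 14858 genes tested. Id1 at 4.56 (3.94 to 5.16), Id2 at 4.23 (3.51 to 4.78) and the receptor Bmpr1a at 4.19 (3.96 to 4.33) came next, and their ranges overlapped. Bmp7 followed at 2.46 (2.06 to 2.79) and Bmpr1b at 1.60 (1.02 to 2.00), and these ranges touched neither each other nor those of the genes above and below. Bmp2 at -2.08 (-2.81 to -1.08) and Bmp6 at -2.25 (-3.02 to -1.52) overlapped, above 7.80% and 6.92% of the genes tested. The remaining ligands were near the limit of detection. Bmp4 had 2 reads in young adult replicate 3, 1 in aged replicate 2 and none in the other 6 libraries, and Bmp5 had between 0 and 4 reads. A count of 0 allows up to 3 reads, 0.0731 RPM in the deepest and 0.177 RPM in the shallowest library. Bmp4 and Bmp5 were therefore left out of the RNA tests, which needed an average of -2 log2 RPM or more, and 8 of the 10 genes passed. In such bulk samples, fewer cells of a type and less RNA per cell cannot be told apart.

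**Figure D1:**
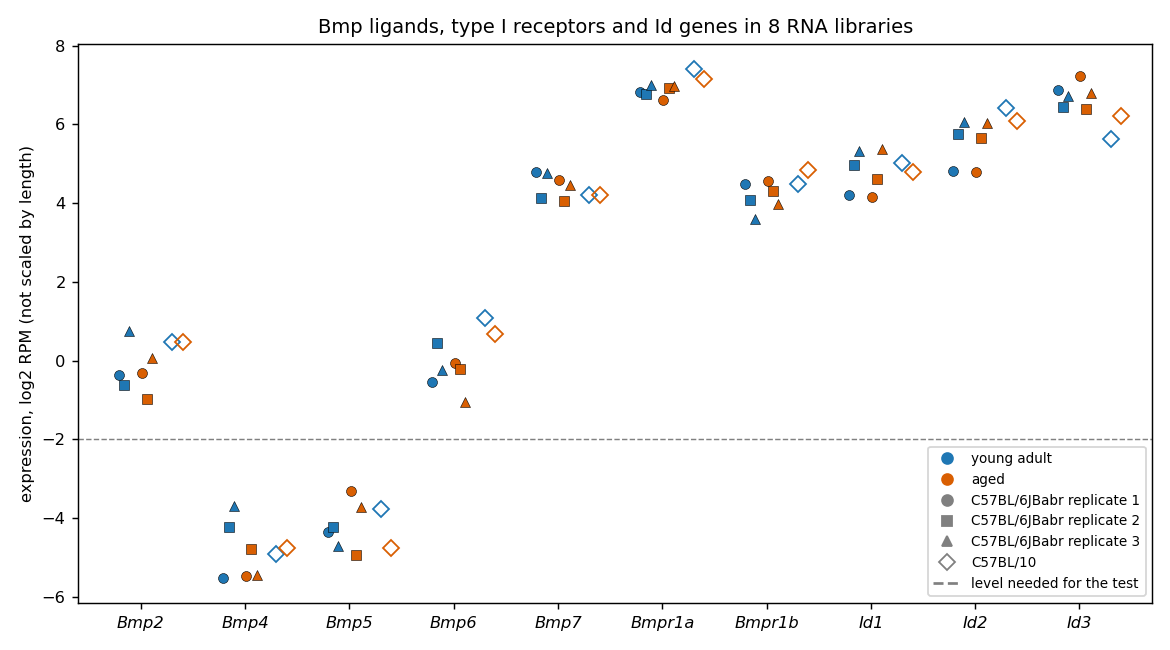
Expression (log2 RPM, not scaled by gene length) of the 10 genes in each of 8 RNA libraries, with colour for age, symbol for replicate number and open diamonds for C57BL/10. Bmp4 and Bmp5 lie below the level needed for the test, and Id1 and Id2 are lowest in replicate 1 at both ages.

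The first comparison asked whether expression differed between young adult and aged NSPCs of C57BL/6JBabr. It did not pass the test for any of the 8 genes. By limma's moderated test with Benjamini-Hochberg adjustment over 14858 genes, the called share over all genes was 0%, with 258 genes at an unadjusted p under 0.05 and none of them a member. Bmp7, the ligand with the highest level, was at 4.79, 4.13 and 4.76 log2 RPM in young adult replicates 1 to 3 and at 4.59, 4.06 and 4.46 in the aged ones. The log2 fold change of aged over young adult was -0.19 ± 0.20 (SE). Each aged library lay below the young adult library of its number, while the 2 ages overlapped. Bmpr1b, a type I receptor that shares ligands with Bmpr1a, was at 4.50, 4.07 and 3.60 in young adult and 4.57, 4.32 and 3.97 in aged libraries, a change of 0.23 ± 0.24. Here each aged library lay above the young adult library of its number, again with overlap between ages. Id2 also had each aged library below the young adult one of its number, at -0.01, -0.09 and -0.03 (log2). The share of all genes with such agreement is not given here.

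With the replicate number as a block, which takes out differences shared by libraries of 1 number, 0.498% of all genes were called (74 of 14858), and none of the members was. Bmp7 had an unadjusted p of 0.0379 and an adjusted p of 0.561 in the blocked limma fit, and Bmpr1b 0.0222 and 0.479. Among the Id genes, the log2 fold change was -0.11 ± 0.35 for Id1, -0.04 ± 0.38 for Id2 and 0.13 ± 0.20 for Id3. It was -0.02 ± 0.11 for Bmpr1a, -0.34 ± 0.44 for Bmp2 and -0.33 ± 0.39 for Bmp6. Bmp2 and Bmp6 rested on 11 to 44 reads per library. The adjusted p without the block was 1.00 for all 8 genes. edgeR's quasi-likelihood test and DESeq2 on the recovered whole reads also called none of the 8, with none at an unadjusted p under 0.05. In no member were the ages separated without overlap, as they were in 5.2% of all genes tested.

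Replicate numbers were compared next. The 3 replicate numbers stand for separate derivations, made on different days, and no source used here says whether both ages of a number were handled together. By limma's moderated F test with age as a term, 22% of all genes differed by replicate number (3263 of 14858), and 6 of the 8 members did. Their adjusted p was 1.3e-05 for Id2, 9.7e-05 for Id1, 0.00157 for Bmpr1b, 0.00222 for Id3, 0.00254 for Bmp7 and 0.0448 for Bmp2. Bmpr1a (adjusted p = 0.120) and Bmp6 (0.299) were not called.

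Id2, an Id family member expressed in many progenitors, was at 4.80, 5.74 and 6.06 log2 RPM in young adult replicates 1 to 3 and at 4.79, 5.65 and 6.03 in the aged ones. The means of the 3 numbers spanned 1.25 on the log2 scale, against an age difference of -0.04. Id1 was at 4.21, 4.96 and 5.32 in young adult and at 4.16, 4.61 and 5.37 in aged libraries, a span of 1.16. In both genes, replicate 1 was lowest and replicate 3 highest at both ages. Bmpr1b held the opposite order, with means of 4.53, 4.19 and 3.78 for numbers 1, 2 and 3. Id3 did not share the order of Id1 and Id2. It was at 6.87, 6.43 and 6.71 in young adult and at 7.22, 6.39 and 6.80 in aged libraries, lowest in replicate 2 and highest in replicate 1. Bmp7 was also lowest in replicate 2 at both ages. Bmp2 spanned 1.21, on 11 to 44 reads, and was highest in replicate 3. The span of the replicate means had a median of 0.76 over the 8 members and of 0.27 over all genes tested. The absolute age difference had a median of 0.16 over the members and of 0.08 over all genes. A range of 3 means of 2 libraries tends to exceed a difference of 2 means of 3 libraries also without an effect, so each quantity is read against its own value over all genes.

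Leaving out young adult or aged replicate 3 left 5 of the 8 genes called, since Bmp2 was lost with adjusted p of 0.592 and 0.142. Bmpr1a was called at 0.00649, 0.00155 and 0.00132 without young adult replicate 1, young adult replicate 2 and aged replicate 2. Of the 10 marker lists, 4 had their summed level lowest in replicate 1 and highest in replicate 3 at both ages. These were the ependymal, neuronal, microglial and pericyte lists, with the order of Id1 and Id2. Another 2, the NSPC and endothelial lists, had the opposite order, that of Bmpr1b. By replicate number, 2 ependymal and 4 NSPC markers were called, against 0 in each of the neuronal, microglial, pericyte and endothelial lists. Pericyte markers summed to only 0.361 to 1.11 RPM. The ependymal markers summed to 30.5, 64.1 and 98.3 RPM in young adult and 34.0, 53.0 and 92.0 RPM in aged libraries. Oligodendrocyte lineage markers were highest in replicate 2, at 75.3 and 84.9 RPM against 50.4 to 55.9 RPM in the others. The part of these cells in the differences was not tested. Library size was largest in replicate 1 of both ages.

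**Figure D2:**
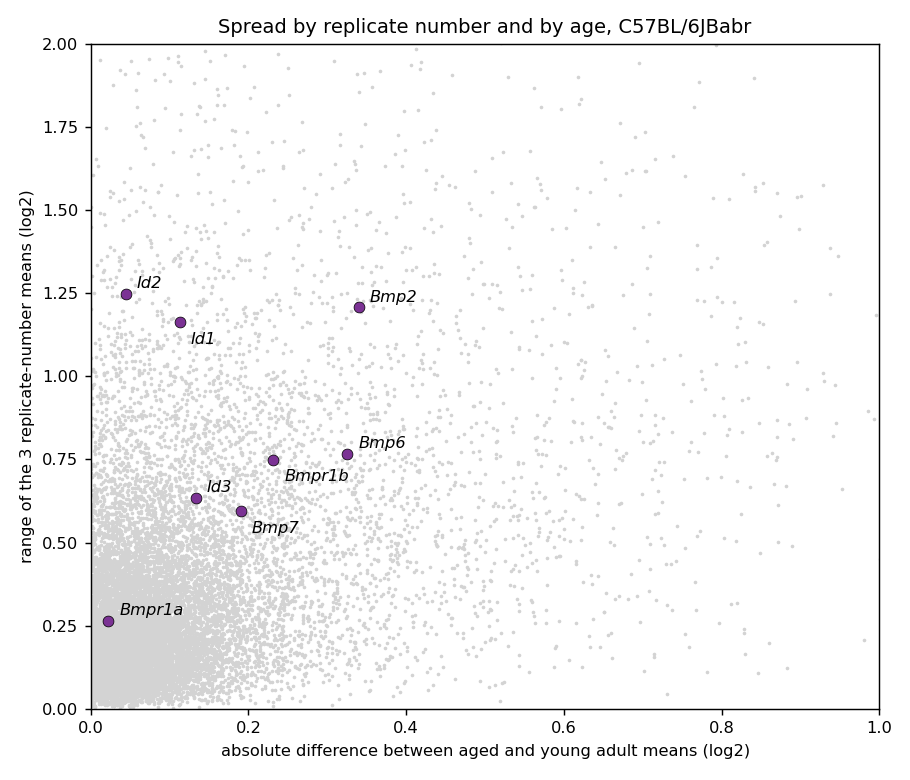
Absolute difference between the aged and young adult means (x axis, log2) against the range of the 3 replicate-number means (y axis, log2) for 14858 genes in grey and the 8 tested members in purple, with 173 genes outside the axes. Id2 lies at 1.25, Bmp2 at 1.21 and Id1 at 1.16 on the y axis, against a median of 0.27 over all genes.

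The C57BL/10 libraries differed from those of C57BL/6JBabr in 3 of the 8 genes, near the share over all genes (4468 of 14858). This comparison rests on 2 libraries, 1 per age, with age as a term of the fit. These 2 are treated as independent, and a difference they share for another reason than strain cannot be told apart from it. Where such a difference exists, the errors and p-values given are too small. Of all genes tested, 18.2% were higher and 11.9% lower in C57BL/10. The median difference over all genes was 0.17 on the log2 scale, and it was 0.19 after quantile normalization. Id3 was at 5.62 log2 RPM in the young adult and 6.21 in the aged C57BL/10 library, against 6.39 to 7.22 in the C57BL/6JBabr libraries. Both values lay below all 6 of these, a difference of -0.82 ± 0.20 (adjusted p = 0.0157). Bmp6, a ligand also known for its part in iron sensing by the liver, was at 1.07 and 0.67, above the -1.05 to 0.44 of the 6 others, a difference of 1.15 ± 0.35 (adjusted p = 0.0350). Bmpr1a was at 7.40 and 7.15, above the 6.63 to 7.00 of the 6 others, a difference of 0.42 ± 0.11 (adjusted p = 0.0218). The differences of the other 5 genes were not called. They were 0.74 ± 0.36 for Id2, 0.72 ± 0.41 for Bmp2, 0.49 ± 0.22 for Bmpr1b, 0.14 ± 0.33 for Id1 and -0.26 ± 0.19 for Bmp7. Without the young adult C57BL/10 library none of the 3 genes was called (adjusted p = 0.261 for Id3, 0.263 for Bmp6 and 0.302 for Bmpr1a), and without the aged one only Id3 was called (0.0499). Oligodendrocyte lineage markers summed to 31.9 and 38.4 RPM in the C57BL/10 libraries, below the 50.4 to 84.9 RPM of the 6 others. NSPC markers, at 9522 RPM, and astrocyte markers, at 2541 RPM, were above the 6 others in the young adult C57BL/10 library alone, and neuronal markers, at 19.5 RPM, in the aged one alone. The part of these cells in the strain differences was not tested.

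The age difference itself was compared between strains as an interaction. None of the 8 genes was called (adjusted p = 1.00 by limma, none at an unadjusted p under 0.05), and 1 gene in all was, 0.00673% of those tested. In C57BL/10 the aged library was 0.58 above the young adult one for Id3 and 0.36 above it for Bmpr1b on the log2 scale, and 0.34 below it for Id2 and 0.40 below it for Bmp6. The error of the interaction was between 0.23 and 0.86. With the replicate number as a block, a fit added after the data were seen, it was between 0.13 and 0.56, and 0.276% of all genes (41 of 14858) and none of the members were called. In that limma fit Id3 had an unadjusted p of 0.0153 (adjusted p = 0.558, estimate 0.45 ± 0.16) and Id2 of 0.0454 (0.771, -0.29 ± 0.13).

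Genes with the most similar profile were sought by Pearson's r of log2 RPM over the 8 libraries. These differ in strain, replicate number and depth, and any of these can set a likeness between genes. For Id3 these were Hes1 (r = 0.989), Rpl21-ps6 (0.964) and Fam100a (0.963), where Rpl21-ps6 is a pseudogene at a low level. Hes1, a transcriptional repressor downstream of Notch, was at 7.08, 6.53 and 6.90 log2 RPM in young adult and at 7.35, 6.66 and 6.90 in aged libraries, and at 5.89 and 6.50 in C57BL/10. It thus had the same lowest replicate number as Id3 and lower values in C57BL/10 than in any other library. For Id1 the 3 genes were Prkar1b (r = 0.993), 4930420K17Rik (0.989) and Slc4a8 (0.987). No genes are given for Bmp4, whose values rested on 0 to 2 reads.

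The other genes of the pathway showed no call by age either. Of 50 listed genes, 39 passed the filter, none was called with or without the block, and 2 had an unadjusted p under 0.05 without the block (258 of all 14858 genes). With the block 6 did (Bmpr2, Chrd, Chrdl1, Msx1, Skil and Tcf12), against 1229 of all genes. Their median log2 fold change was 0.05, against 0.00 over all genes tested, and 26 were above 0 and 13 below, where 50.6% of all genes were above 0. The 2 without the block were Bmpr2, the main type II receptor for BMPs, at 0.26 ± 0.11 (adjusted p = 1.00), and Tcf12, an E protein bound by Id proteins, at 0.23 ± 0.09 (1.00), the latter, like Skil, named after its value was seen. Among other receptors, Acvr2b was at 0.27 ± 0.31. Among other ligands, Gdf6 was at -0.29 ± 0.56 and Gdf11 at 0.06 ± 0.10. Of the Smads and Smad regulators, all 10 had limma estimates above 0 and none passed the test, with Smad7, an inhibitory Smad, at 0.37 ± 0.22 and Smad9 at 0.18 ± 0.81. Smad9 was below 0 in edgeR (-0.019) and DESeq2 (-0.049). The antagonist Chrd was at -0.49 ± 0.22 and Chrdl1 at -0.22 ± 0.14. Among targets and Id partners, Msx1 was at 0.67 ± 0.57 and Atoh8 at 0.29 ± 0.73. By replicate number, 13 of the 39 were called, including 5 of the 9 tested targets and Id partners, where 22% of all genes were. Atoh8 spanned 2.41 (adjusted p = 9.7e-05) and Smad9 2.63 (0.000531) between replicate means. In C57BL/10, 11 of the 39 were higher and 1, Hes1, was lower (-0.71, adjusted p = 0.0266, named for its likeness to Id3), where 18.2% of all genes were higher and 11.9% lower.

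H3K4me3 is a mark of active or poised promoters and H3K27me3 the mark of Polycomb repression. At the main windows, H3K27me3 was highest among the ligands, while the H3K4me3 levels of ligands, receptors and Id genes overlapped. Values are log2 RPM in the 5-kb window centred on a transcript start, over 3 derivations pooled to 1 value per age by the authors, so they have no error and no test. All 5 ligands had H3K27me3 above 1 log2 RPM in at least 1 age, against none of the 2 receptors and 3 Id genes at their main window, and 37.7% of all genes did. This split holds for that level and the main windows, since 9 of the 10 genes were above 0 and the upstream Bmpr1b windows, at 2.00 to 2.29, were above 1. H3K4me3 was above 1 in 9 of the 10, all but Bmp5, against 59.7% of all genes. Both marks were above 1 at 4 ligands, against 20.7% of all genes. Input, the chromatin before precipitation, was between 0.42 and 1.43 at the members' main windows, so a value above 1 can lie near background. H3K27me3 at Bmp7 was 1.87 and 2.04 against Input of 1.33 and 1.43 in young adult and aged cells. At Bmp5 it was 1.14 and 2.36 against 0.69 and 0.57.

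Bmp4 carried the most H3K27me3, at 5.38 in young adult and 5.47 in aged NSPCs, above 98.5% of all genes in both, with H3K4me3 at 2.83 and 2.86. Bmp2 had H3K27me3 at 4.15 and 4.42 and H3K4me3 at 4.78 and 4.83. Bmp6 was close to it, with H3K27me3 at 4.39 and 4.69 and H3K4me3 at 4.59 and 4.67. Bmp4, with almost no reads, and Bmp2 and Bmp6, with means under 1 RPM, thus carried the most H3K27me3, while Bmp5, also with almost no reads, was at 1.14 and 2.36. Bmp7, the ligand with the most RNA, had less H3K27me3, at 1.87 and 2.04, and more H3K4me3, at 5.99 and 6.26. The Id genes had H3K4me3 between 5.99 and 7.03 and H3K27me3 between 0.11 and 0.71, and Id2 stood above 99.6% of all genes in H3K4me3.

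**Figure D3:**
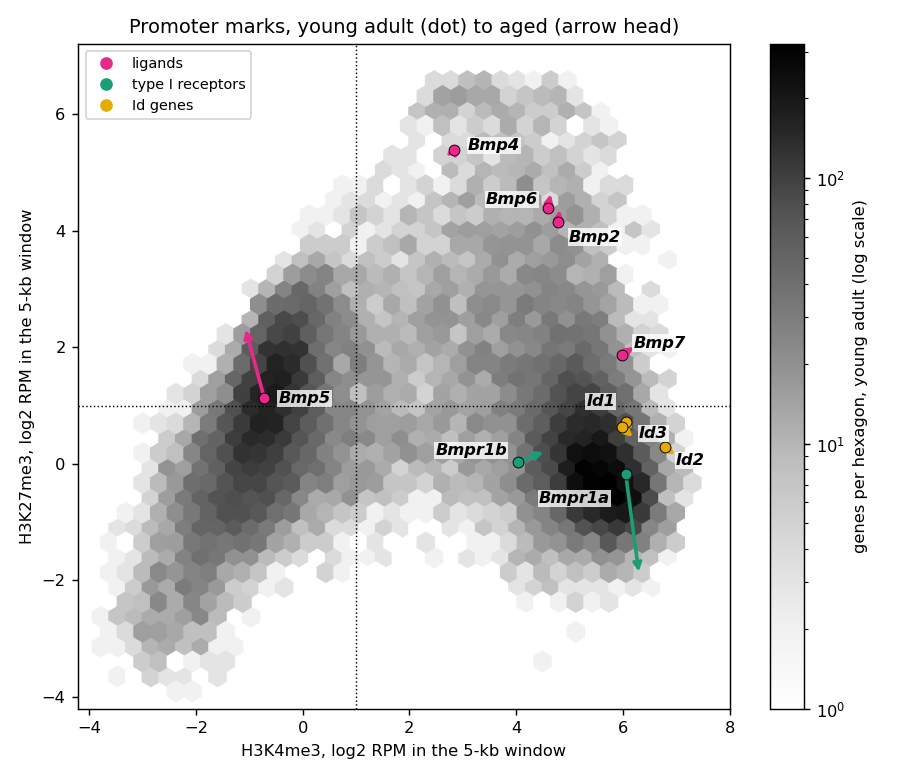
H3K4me3 (x axis) against H3K27me3 (y axis) in log2 RPM of the main 5-kb promoter window, with all genes in young adult NSPCs as grey hexagons (12 genes lie outside the axes) and the members as dots (young adult) with arrows to the aged value. Dotted lines mark 1 log2 RPM. The 5 ligands lie above the horizontal line in at least 1 age and the receptors and Id genes below it.

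Between ages, a window was counted as changed when it differed by at least 1.5-fold and was above 1 log2 RPM in an age. For H3K27me3, 1.61% of all genes changed (194 higher and 222 lower in aged), and 1 of the 10 members did. Bmp5 went from 1.14 to 2.36, a difference of 1.23 on the log2 scale, while its Input went from 0.69 to 0.57. Its place among all genes moved from above 67.8% to above 86.7% of them. The second Bmp5 window, at an internal start, was at -0.02 and 0.22. H3K4me3 at the main Bmp5 start was at -0.72 and -1.08. Bmp5 kept its call at 2-fold, after subtraction of Input and after quantile normalization (1.35 and 1.22). Bmpr1a went from -0.18 to -1.91, but both values lie below the level needed.

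For H3K4me3, 0.224% of all genes changed and none of the members did. Windows above 1 log2 RPM shifted upward as a whole, by a median of 0.21 in aged NSPCs. Id1, Id2, Id3, Bmp7 and Bmpr1a were 0.19 to 0.27 higher, near that shift. Bmp2, Bmp4 and Bmp6 were 0.05, 0.03 and 0.08 higher, less than the shift. This was also less than the median of 0.15 over all genes with both marks above 1. After quantile normalization Bmp2, Bmp4, Bmp6, Id1 and Id2 lay below 0 (-0.15 for Bmp2, -0.11 for Bmp6 and closer to 0 for the others), and after subtraction of Input Bmp4 and Id3 did (-0.13 and -0.37), so their direction depends on the scaling. The main Bmpr1b window had the largest H3K4me3 difference of the members, 0.53, still under 1.5-fold, and it was 0.38 after quantile normalization.

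Bmpr1b had starts with unlike H3K27me3. Its 5 windows fall at 3 places on chromosome 3. The most upstream starts, at 142169425 and 142169213, had H3K4me3 of 4.79 in young adult and 5.00 in aged cells and H3K27me3 of 2.00 to 2.29. The start at 141982264 had H3K4me3 of 4.04 and 4.57 and H3K27me3 of 0.03 and 0.23. The starts at 141931508 and 141931523 had H3K4me3 of 4.27 and 4.50 and H3K27me3 between -0.87 and -0.63. H3K27me3 above 1 was therefore present at the upstream pair alone. The RNA table gives 1 value per gene, so the starts could not be compared in RNA. Bmpr1a differed between starts as well, with H3K4me3 between 5.95 and 6.32 at 3 starts and below 0 at the internal start 34460556. The windows of Bmp4, Bmp7 and Id3 lay within overlapping sequence.

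DNA methylation in the main windows was below the median of all windows at 8 of the 10 genes and above it at Bmp5 and Bmpr1b. It was measured by oxidative bisulfite sequencing (oxBS), which reads 5-methylcytosine (5mC) alone, as the share of calls methylated. Each main window held 36 to 298 calls per library, and the median over 23773 windows tested was 34.9%. Over all 6 libraries, Bmp5 was at 78.5%, above 87.4% of windows, and the main Bmpr1b window at 56.5%, above 62.9% of them. The other Bmpr1b windows were between 23.5% and 36.6%. Bmpr1a was at 6.89%, Id1 at 8.62% and Bmp6 at 10.4%, and the other 5 genes were between 14.0% and 23.2%.

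No window of the series was called between ages by the limma-moderated quasi-binomial model (0% of 23773 windows, 1284 at an unadjusted p under 0.05). Of the members only Id3 had an unadjusted p under 0.05. Its window was at 14.8%, 23.5% and 16.6% in young adult replicates 1 to 3 and at 27.01%, 30.8% and 26.8% in the aged ones. The means were 18.3% ± 4.60 and 28.2% ± 2.23 (SD, n = 3), and the difference of pooled calls was 9.40 percentage points (unadjusted p = 0.0237, adjusted p = 0.910 over all windows). In the other 2 Id3 windows, which overlap it, the difference was 6.78 and 3.73 percentage points, and within 1 kb on either side of the main start it was 2.42 (unadjusted p = 0.569). Standard bisulfite libraries (BS) of the same derivations read 5mC and 5-hydroxymethylcytosine together. In these, Id3 was at 23.6% in young adult and 21.8% in aged cells, a difference of -1.80. The pooled oxBS share of Id3 in aged cells, 28.3%, lay above the BS share, although BS counts both forms. Differences between the methods are therefore not read as 5-hydroxymethylcytosine here.

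The other 9 genes differed by less in their main windows. Bmp2 was at 11.4%, 18.1% and 12.9% in young adult and at 19.2%, 17.0% and 22.7% in aged libraries, a difference of 4.72 percentage points. Bmp5 was at 76.5%, 81.0% and 84.4% and at 80.6%, 74.1% and 75.5% in oxBS, a difference of -4.26. It ranged from -6.27 to -2.64 when 1 library was left out. In BS, Bmp5 was at 77.4%, 75.8% and 78.9% in young adult and at 84.0%, 83.0% and 82.5% in aged libraries. The BS difference was 5.72 (unadjusted p = 0.226 by the same model), so the direction of Bmp5 turned between the methods. The others differed by -3.16 (Bmp4) to 3.18 (Bmpr1b) points. The direction also turned between the methods for Bmpr1b, at -9.36 in BS, and for Id1, at 2.12 in oxBS and -1.58 in BS. At the most upstream Bmpr1b start (142169425), which carried H3K27me3, 5mC averaged 44.7% ± 13.1 in young adult and 31.5% ± 10.5 in aged libraries. These are means and SD (n = 3), with overlap between ages. The pooled calls gave 43.3% and 30.6% there, a difference of -12.7 percentage points. It was not tested, since the fits covered main windows only. At the downstream starts the pooled calls gave 26.5% and 20.4%.

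**Figure D4:**
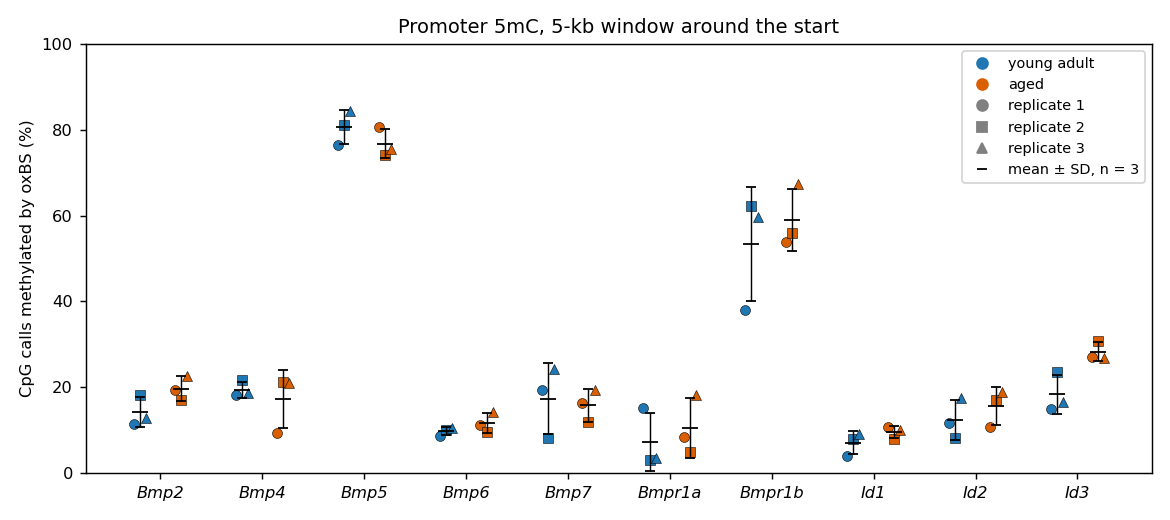
Share of CpG calls methylated by oxBS (y axis, %) in the main 5-kb window of the 10 genes for each of 6 libraries, with the mean and SD of each age (n = 3). Bmp5 lies between 74.1% and 84.4% and Bmpr1b between 38.0% and 67.3%.

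Calls of the pooled libraries were also read in bins of 500 bases. Both bins beside the start held 8.33% 5mC or less at both ages in Bmp2, Bmp6, Bmp7, Bmpr1a, Id1 and Id2. In the bin just before the start, which holds the printed stretch, Id2 had 0 methylated of 82 calls in young adult and 0 of 75 in aged cells, which allows up to 3.66% and 4.00%. Bmp7 had 0 of 153 and 0 of 66, and Bmpr1a 0 of 159 and 0 of 131. Bmp4, whose whole 5-kb window had the most H3K27me3 of the members, was at 22.7% (66 calls) and 18.4% (38 calls) in that bin. It was at 9.52% (42 calls) and 10.5% (38 calls) in the next one downstream. Bmp5 was methylated on both sides of its start, at 94.1% (17 calls) and 64.0% (25 calls) before it and at 66.7% (12 calls) and 75.0% (8 calls) after it. Id3 was at 51.7% (29 calls) and 62.5% (32 calls) before the start that the files give and at 0% after it (71 and 47 calls). The main Bmpr1b start was at 14.3% (7 calls) and 54.5% (11 calls) before it. After it, Bmpr1b was at 9.09% (66 calls) and 19.3% (57 calls). Single bins were not tested between ages. At Bmp7, named after its values were seen, the bin centred 1750 bases after the start was at 55.3% (38 calls) in young adult and 15.3% (59 calls) in aged cells.

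**Figure D5:**
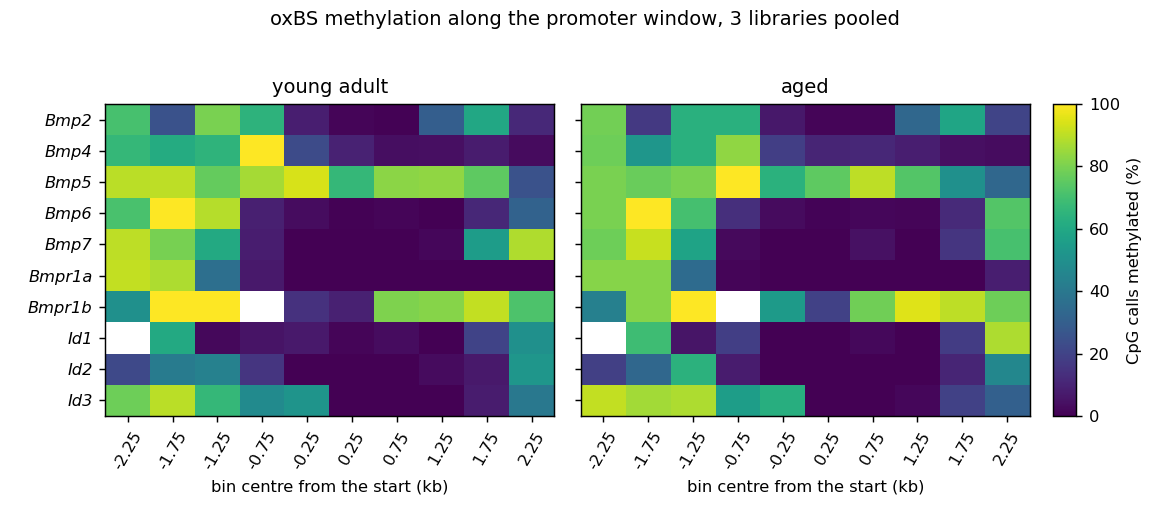
Share of CpG calls methylated by oxBS (colour, %) in 500-base bins by distance from the main start in kb (x axis, negative before the start in the direction of the gene) for the 10 genes, 3 libraries pooled per age, white where no call was made. Bmp5 is methylated across most of the window, while Id2, Bmp7 and Bmpr1a are at 0% in the bins beside the start.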

How the data were processed

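RNA values were deposited by the authors as log2 RPM per gene and library, on GRCm38. The steps between low values gave back whole reads (100% of values between 1 and 1000 reads were whole within 0.02), and genes without a read hold the value of 0.9 reads. ChIP values were deposited as log2 RPM in 5-kb windows, pooled by the authors over 3 replicates. Methylation files hold deposited counts of methylated and unmethylated calls, and a percent per position by the authors that was not used. Per the labels, the submitters' processing notes name Trim Galore 0.3.7 and 0.4, Bowtie2 2.2.5, STAR 2.3.0 and Bismark 0.12.5. No source used here names the counting program. Low coverage of single CpGs (1.20 to 1.48 calls per covered position) was the reason for summing calls over windows.

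RNA was compared with limma 3.58.1 (R 4.3.3) with a mean-variance trend over the 14858 genes averaging -2 log2 RPM or more, with Benjamini-Hochberg adjustment at 0.05. edgeR 4.0.16 and DESeq2 1.42.0 were run on the whole reads. Levels per length used the union of GENCODE vM21 exons. Each gene's main window is that of the transcript ending in -001, or else its first. Methylation was called where the adjusted p was under 0.05 and the ages differed by 10 percentage points or more, with 10 or more calls per library. Intervals and limits of a count of 0 (3 counts) cover counting error only.

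Deviations from the age mean correlated between libraries of the same replicate number (0.659, 0.179 and 0.724 over 14858 genes), all above 0.1. The fit with this pairing as a block is given as an alternative, and every printed fold change ± SE comes from the fit without it unless the block is named. The median residual SD was 0.173 without and 0.108 with the block. Nothing in the sources states that derivations of 1 number share animals or a day, so p-values measure the spread between these derivations. The 10 genes, the pathway and marker lists and the tests were chosen with earlier results of these data known. Of these lists, 1 gene is not reported here and was taken out of their counts and sums. Named were the 10 members, pathway genes called by age, the 2 with the largest age change in each list, and the 3 genes most like Id1 and Id3. The same rule covered Bmp4, for which no genes were named because of its reads. RefSeq promoter entries were used for 7 of the 10 genes (Bmp4, Bmp5, Bmp6, Bmpr1a, Bmpr1b, Id2 and Id3).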

Additional observations from a re-analysis of the deposited data

How the results depend on the processing

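The count of members called stayed the same or within 1.5 times in every alternative to the age, replicate-number, interaction, ChIP and oxBS results, with the calls by replicate number between 5 and 7 of 8 when each library was left out. For strain it went between 0 and 4, with 0 without the young adult and 1 without the aged C57BL/10 library, where the lone library is assumed to vary like the others. The interaction could not be fitted without a C57BL/10 library, and the block, added there after the data were seen, called 41 genes against 1. The replicate block called 74 genes by age against 0 without it and 4 by DESeq2, and it changed no call among the members (0 of 8 in RNA by age and in the interaction, 0 of 10 windows in oxBS). Calls by replicate number over all genes ranged from 1473 to 6831 when a library was left out, and calls by strain fell to 1478 and 1921 without the young adult and the aged C57BL/10 library. Bmp2 by replicate number was lost after quantile normalization (adjusted p = 0.0652) and without the filter (0.0912), and Bmp6 by strain without the filter (0.0539) and without aged replicate 2 (0.0506), by limma. Bmpr1b by strain was called without young adult replicate 1 (0.0331). H3K4me3 windows changed over all genes numbered 58, and 555 at a level of 0 and 715 after subtraction of Input. For H3K27me3 they numbered 416, and 1629 and 840.

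No result whose sign turned had passed its test, and the cause was not tested. Leaving out each library, the age difference ranged from -0.61 to 0.075 for Bmp2, -0.54 to -0.021 for Bmp6, -0.41 to -0.037 for Bmp7, -0.092 to 0.086 for Bmpr1a, 0.0032 to 0.45 for Bmpr1b, -0.44 to 0.17 for Id1, -0.41 to 0.31 for Id2, -0.076 to 0.34 for Id3, -0.76 to 0.10 for Gdf6, -0.0057 to 0.13 for Gdf11, -0.71 to 0.87 for Smad9, -0.45 to 0.92 for Atoh8, 0.065 to 1.09 for Msx1 and 0.071 to 0.62 for Acvr2b (log2). Smad9 was also below 0 in edgeR (-0.019) and DESeq2 (-0.049). The ranges of Bmpr2 (0.16 to 0.36), Smad7 (0.27 to 0.42), Chrd (-0.65 to -0.35) and Chrdl1 (-0.37 to -0.12) kept their sign. The strain difference of Id1 ranged from -0.013 to 0.29, and the interaction from -0.090 to 0.60 for Bmp2, -0.38 to 0.14 for Bmp6, -0.087 to 0.36 for Bmpr1b, -0.38 to 0.23 for Id1 and -0.64 to 0.072 for Id2. The oxBS difference ranged from -6.58 to 1.41 percentage points for Bmp4, -6.51 to 1.67 for Bmp7, -2.84 to 7.72 for Bmpr1b and -0.11 to 5.68 for Id2. In a window of 1 kb on either side it was -0.28 for Bmp2, 0.037 for Bmp7, -0.66 for Bmpr1a, -0.63 for Id1 and -2.43 for Id2. In BS libraries it was 5.72 for Bmp5, -9.36 for Bmpr1b, -1.58 for Id1 and -1.80 for Id3.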

Other observations

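Promoter marks of the other pathway genes were read by the same rule. Of 50 main windows, 46 had H3K4me3 above 1 log2 RPM, 27 had H3K27me3 above 1 and 26 had both, against 59.7%, 37.7% and 20.7% of all genes. None changed in H3K4me3, and 2 changed in H3K27me3, both higher in aged NSPCs and neither at 2-fold, where 1.61% of all genes changed. After subtraction of Input, Nog and Olig2 were higher in H3K4me3 and Nog was added in H3K27me3. At a level of 0, Sostdc1 was lower in H3K4me3 and Crim1, Olig2 and Skil in H3K27me3. Id4, the fourth member of the Id family, went from 1.76 to 2.38, and Rgmb, a BMP co-receptor, from 1.05 to 1.75, with no test. Both genes were named after their H3K27me3 values were seen. They had lower RNA means in aged C57BL/6JBabr libraries without overlap between ages. In either direction, 7 of the 39 tested pathway genes and 5.2% of all genes had no overlap. Besides Id4 and Rgmb these were Bmpr2, Skil, Smad7, Tcf12 and Tcf4, all higher in aged libraries. Neither Id4 nor Rgmb passed the test (log2 fold change -0.29 for Id4 and -0.24 for Rgmb, adjusted p = 1.00 by limma). In C57BL/10 the aged library was 0.57 above the young adult one for Id4 and 0.17 below it for Rgmb.

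In oxBS, the window of Bmp3, a ligand known to oppose other BMPs, had the lowest unadjusted p of the pathway genes tested, with 22.3 percentage points more 5mC in aged cells (unadjusted p = 0.000298, adjusted p = 0.910 over all windows). In BS libraries the difference was -1.93. Bmp3 was named after its value was seen, and its RNA was below the level needed for the test.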
